A study of Mus musculus with 4 samples.

Results

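The genes described here are 9 transcripts of MHC class II antigen presentation in mouse macrophages, H2-Aa, H2-Ab1, H2-Eb1, H2-DMa, H2-DMb1, H2-DMb2, Cd74, Ciita and Ifi30. They were chosen by their known function, and are 9 of the 23284 gene symbols in the deposited tables. The cells were bone marrow-derived macrophages, grown from the marrow of wild type mice and plated at 1000000 cells per well. The first group received recombinant mouse galectin-1, a secreted lectin that binds galactosides, and the second received phosphate-buffered saline (PBS) as vehicle, both for 24 h. Both groups had been exposed beforehand to lipopolysaccharide (LPS), the endotoxin of Gram-negative bacteria, at 1 µg/ml for 1 h, so the vehicle cells are LPS-treated cells and not resting ones. No dose of galectin-1 is given in the sources used here. RNA sequencing gave 2 libraries per group, and expression is in FPKM, fragments scaled to transcript length and library size, so levels may be set side by side between genes. The comparison asks whether the antigen presentation genes belong to the change of macrophage character that the series looked for with galectin-1.

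MHC class II molecules are pairs of an alpha and a beta chain that hold peptides from ingested proteins and show them to CD4 T cells. The invariant chain encoded by Cd74 fills the groove of new pairs and guides them to endosomes, where proteases degrade it and the H2-DM heterodimer exchanges its last fragment for antigen peptides. Ciita is the coactivator that turns the class II genes on together. It does not bind DNA itself but docks on regulatory factors at the conserved X and Y boxes of their promoters, and interferon gamma is its classical inducer in macrophages.

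The promoters below show letters of the X and Y boxes that H2-Eb1, H2-DMb1 and H2-DMb2 share. Mean transcript levels were 10.7 FPKM for H2-Eb1, 11.5 FPKM for H2-DMb1 and 0.133 FPKM for H2-DMb2. Beside these promoters stands that of H2-Aa, which holds the same Y box letters but not the same X box letters. RefSeq promoter windows of GRCm38.p6, the patched assembly behind mm10, run from 250 bases before to 50 bases after a start listed in the promoter table and matched 6 of the 9 genes. For H2-DMa and H2-DMb2 the listed starts lie inside the span that the gene table gives, which begins upstream of them, so distances are counted from the listed starts. H2-Ab1, Cd74 and Ciita were not among them. Capitals mark AACNGATG (letters of the X box core), GATTGG (letters of the Y box, which hold the inverted CCAAT box) and TGACGTCA (letters of the cAMP response element), each searched on both strands. The windows lie at chr17:34305617-34305916 (plus strand) for H2-Eb1, chr17:34152941-34153240 (plus) for H2-DMb1, chr17:34144999-34145298 (plus) for H2-DMb2 and chr17:34287774-34288073 (minus) for H2-Aa. Each is written 5′ to 3′ on the strand of its gene.
H2-Eb1: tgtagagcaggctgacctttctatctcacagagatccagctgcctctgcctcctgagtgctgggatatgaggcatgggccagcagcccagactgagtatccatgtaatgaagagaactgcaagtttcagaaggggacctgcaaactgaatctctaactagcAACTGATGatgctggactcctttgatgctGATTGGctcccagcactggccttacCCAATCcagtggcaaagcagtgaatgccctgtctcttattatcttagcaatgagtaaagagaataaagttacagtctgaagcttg
H2-DMb1: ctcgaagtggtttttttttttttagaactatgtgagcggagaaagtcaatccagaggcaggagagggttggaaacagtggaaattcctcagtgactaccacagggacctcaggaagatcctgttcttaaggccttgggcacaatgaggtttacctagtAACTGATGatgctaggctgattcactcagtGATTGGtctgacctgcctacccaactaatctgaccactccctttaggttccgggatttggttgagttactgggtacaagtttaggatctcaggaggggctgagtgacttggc
H2-DMb2: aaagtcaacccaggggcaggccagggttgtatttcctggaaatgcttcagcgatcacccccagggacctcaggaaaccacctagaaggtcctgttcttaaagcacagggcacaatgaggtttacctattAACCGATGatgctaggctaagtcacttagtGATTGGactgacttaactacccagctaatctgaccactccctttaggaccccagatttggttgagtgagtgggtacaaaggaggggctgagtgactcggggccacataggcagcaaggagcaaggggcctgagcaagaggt
H2-Aa: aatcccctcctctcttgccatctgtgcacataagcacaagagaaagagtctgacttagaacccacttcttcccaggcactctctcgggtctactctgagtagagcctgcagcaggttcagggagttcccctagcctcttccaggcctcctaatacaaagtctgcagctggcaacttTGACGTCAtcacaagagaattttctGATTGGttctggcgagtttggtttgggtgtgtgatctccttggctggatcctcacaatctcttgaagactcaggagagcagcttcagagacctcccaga
These letters were chosen after the windows had been seen, and a match is a description and not a binding site. AACNGATG stands in 2.32% of 32851 windows of this length, GATTGG in 16.1% and TGACGTCA in 1.79%. AACNGATG followed by GATTGG on the same strand, with starts at most 40 bases apart, stands in 10 windows (0.0304%). Their starts are 29 bases apart in H2-Eb1 and 30 bases apart in both H2-DMb1 and H2-DMb2. In 5 of the 32851 windows the spacing is 29 or 30 bases, the others being those of H2-Eb2 and BC051142. This spacing was read from the windows printed above, so the count is a description and not a test. The first letter of AACNGATG lies 89 bases before the listed start in H2-Eb1, 92 in H2-DMb1 and 121 in H2-DMb2. H2-Aa has TGACGTCA and then GATTGG, and AACNGATG is not in its window. A search for these letters alone cannot show whether an X box is absent there. Of 2 windows of H2-DMa, the second holds GATTGG alone, and none of the letters is in the window of Ifi30. The windows of H2-DMb1 and H2-DMb2 are identical at 208 of 247 aligned bases (84.2%), with 106 further alignment columns that hold a gap.

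Totals were 557661 and 555507 FPKM in the galectin-1 libraries, against 553191 and 541138 FPKM in the vehicle libraries. The steps between low values gave depths of 1.03 and 0.872 for galectin-1 replicates 1 and 2 and 0.969 for vehicle replicate 2, with vehicle replicate 1 set to 1. Absolute depth is not known. Vehicle replicate 1 stood apart by its small RNA entries, which summed to 19455 FPKM there and to between 7659 and 11777 FPKM in the other libraries. The labels do not say that replicates came from different cultures or mice. The p-values therefore rest on a spread between these 4 samples alone, which may be technical. All 9 listed macrophage markers were expressed, with sums of 10143 and 10126 FPKM in galectin-1 libraries, against 9352 and 9347 FPKM in vehicle libraries.

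Cd74, Ifi30, the classical chains, H2-DMa and H2-DMb1 were expressed in every library, and no difference between galectin-1 and vehicle cells passed the test for any of them. The 9 genes summed to 294.8 and 299 FPKM in galectin-1 libraries, against 306 and 298 FPKM in vehicle libraries. Cd74 alone made up 46.0% to 47.5% of that sum. In limma on log2(FPKM + 1), 7 of the 9 genes reached the minimum mean of 1 FPKM and were tested. None was higher and none lower at an adjusted p of 0.05. Of all 9380 tested genes 1.19% passed, 0.608% higher and 0.586% lower with galectin-1. None of the 7 had an unadjusted p under 0.05, as 23.2% of all tested genes had, and the smallest was 0.196. With 7 genes tested, 0 calls is near that 1.19% background and does not set them apart.

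The size of the differences was bounded. The 7 log2 differences (galectin-1 minus vehicle) ran between -0.086 and 0.062, 4 positive and 3 negative, with a median of 0.0048 against 0.0024 over all tested genes. Their median absolute difference was 0.041 on the log2 scale, against 0.091 over all tested genes. The 95% intervals, unadjusted for the number of genes, reached at most 0.25 in size, for H2-Ab1, which is 1.19-fold. Standard errors lay between 0.035 and 0.077 on the log2 scale, against a median of 0.072 for all tested genes.

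**Figure D1:**
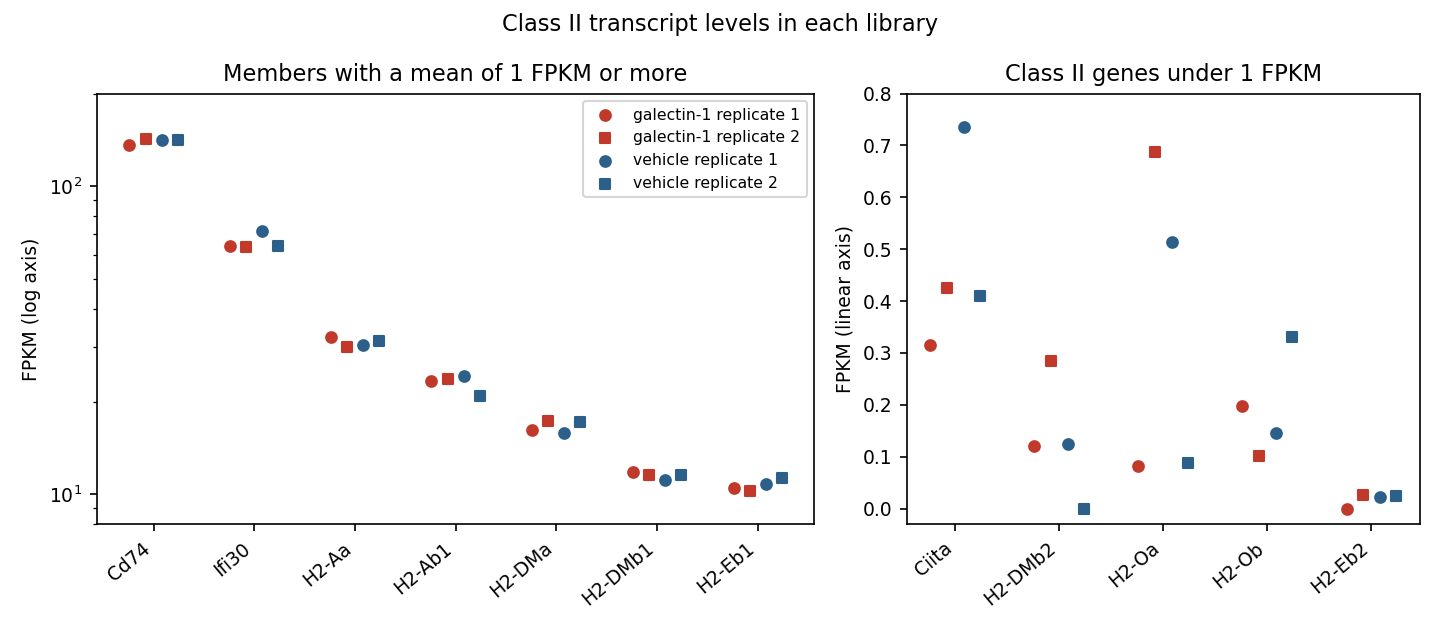
Expression in FPKM of the class II genes in each library, on a log axis for the 7 genes averaging 1 FPKM or more (left) and on a linear axis for 5 class II genes under it (right); each point is 1 library, galectin-1 in red and vehicle in blue. In the left panel the points of a gene sit close together, from about 140 FPKM for Cd74 down to about 10.7 FPKM for H2-Eb1, while on the right the libraries of Ciita, H2-DMb2, H2-Oa and H2-Ob scatter widely and those of H2-Eb2 lie near 0.

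The genes kept the same order of levels in every library, from Cd74 down to H2-DMb2. Mean levels over the 4 libraries were 140.1 FPKM for Cd74, 65.8 for Ifi30, 31.2 for H2-Aa, 23.0 for H2-Ab1, 16.6 for H2-DMa, 11.5 for H2-DMb1 and 10.7 for H2-Eb1. The ranges of H2-DMb1 (11.1 to 11.8 FPKM) and H2-Eb1 (10.2 to 11.3 FPKM) overlapped, and those of every other pair of neighbours among these 7 did not. Ciita followed at a mean of 0.471 FPKM and H2-DMb2 at 0.133 FPKM.

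The classical chains come first. H2-Aa, the alpha chain of the I-A molecule (chr17:34282744-34287823, minus strand), had 32.4 and 30.1 FPKM in galectin-1 libraries, against 30.6 and 31.5 FPKM in vehicle libraries. The galectin-1 values enclosed the vehicle values, and the log2 difference was 0.0048 with a standard error of 0.051 (95% interval -0.12 to 0.13, limma adjusted p = 0.968). Its sign was negative under each of 3 other scalings of the libraries. H2-Ab1, the I-A beta chain (chr17:34263227-34269418, plus strand), had 23.3 and 23.7 FPKM in galectin-1 libraries, against 24.3 and 20.8 FPKM in vehicle libraries. Vehicle replicate 2 was the low library and vehicle replicate 1 the high one, so the groups overlapped. The log2 difference of H2-Ab1 was 0.062 with a standard error of 0.077 (95% interval -0.13 to 0.25, limma adjusted p = 0.671), and it was -0.046 without vehicle replicate 2.

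H2-Eb1, the beta chain of the I-E molecule (chr17:34305867-34316674, plus strand), had 10.5 and 10.2 FPKM in galectin-1 libraries, against 10.8 and 11.3 FPKM in vehicle libraries. Both galectin-1 libraries lay below both vehicle libraries. The log2 difference was -0.084 with a standard error of 0.058 (95% interval -0.23 to 0.058) and did not pass (limma adjusted p = 0.430). H2-Eb1 was the 1 gene of the 7 whose groups did not overlap, where 55.4% of all tested genes had groups without overlap and 26.2% had them with galectin-1 lower. H2-Ea-ps, the pseudogene entry of the matching I-E alpha chain, was listed at 0 in all 4 libraries. Together the 3 classical transcripts summed to 66.1 and 64.0 FPKM in galectin-1 libraries, against 65.7 and 63.6 FPKM in vehicle libraries.

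The invariant chain and the lysosomal thiol reductase were the most abundant of the 9. Cd74 (chr18:60803849-60812652, plus strand) had 136 and 142 FPKM in galectin-1 libraries, against 141 and 141 FPKM in vehicle libraries. The means were 139 ± 4.24 FPKM with galectin-1 and 141 ± 0.0714 FPKM with vehicle (SD, n = 2 each). The log2 difference was -0.018 with a standard error of 0.035 and the narrowest interval of the 7, -0.10 to 0.067 (limma adjusted p = 0.794). Ifi30 encodes the reductase that opens disulfide bonds of ingested antigens (chr8:70762773-70766663, minus strand). It had 64.0 and 63.5 FPKM in galectin-1 libraries, against 71.8 and 63.8 FPKM in vehicle libraries. The high value was that of vehicle replicate 1, with the other three libraries close together. Its log2 difference was -0.086 with a standard error of 0.059 (95% interval -0.23 to 0.060, limma adjusted p = 0.430), and -0.0025 without vehicle replicate 1. An exon of Ifi30 overlaps 6330537M06Rik on the opposite strand. In the longest transcript of Ifi30, 36 of 932 windows of 50 bases (3.86%) were shared with another gene, and 0 of 882 windows of 100 bases. Whether reads of 6330537M06Rik entered the value of Ifi30 was not tested.

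**Figure D2:**
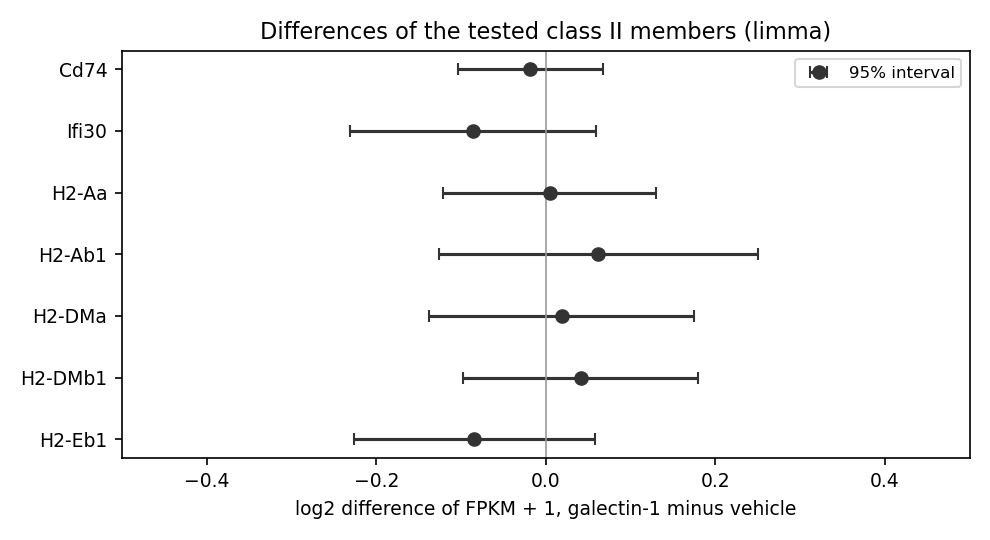
Log2 difference of FPKM + 1, galectin-1 minus vehicle, for the 7 tested class II genes; points are limma estimates and bars their 95% intervals (2 libraries per group). Every interval holds 0 and none goes past 0.25 in size.

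Transcripts of the peptide exchange factor H2-DM also did not differ beyond the spread between replicates. H2-DMa, its alpha chain (chr17:34119693-34139101, plus strand), had 16.2 and 17.3 FPKM in galectin-1 libraries, against 15.8 and 17.2 FPKM in vehicle libraries. The log2 difference was 0.019 with a standard error of 0.064 (95% interval -0.14 to 0.17, limma adjusted p = 0.890), and -0.012 once the libraries were rescaled without small RNA entries. H2-DMb1, a beta chain (chr17:34153191-34160229, plus strand), had 11.8 and 11.6 FPKM in galectin-1 libraries, against 11.1 and 11.6 FPKM in vehicle libraries, and the groups overlapped. Its log2 difference was 0.041 with a standard error of 0.056 (95% interval -0.097 to 0.18, limma adjusted p = 0.703). An exon of H2-DMa overlaps Brd2 on the opposite strand in the GENCODE M21 annotation. Brd2 had 181 and 181 FPKM in galectin-1 libraries, against 178 and 178 FPKM in vehicle libraries. In the longest coding transcript of H2-DMa, 0 of 1956 windows of 50 bases occurred in another gene on either strand. The kit kept strand, but whether counting used it, or which transcripts were counted, is not stated in the sources used here. Reads of the pair may therefore have been mixed, which was not tested.

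H2-DMb2, the second beta chain gene (chr17:34143229-34151553, plus strand), had 0.121 and 0.285 FPKM in galectin-1 libraries, against 0.124 and 0 FPKM in vehicle libraries, and was not tested. After correction for relative depth these were 1 and 2 times the same step of 0.124 FPKM with galectin-1, against 1 and 0 times with vehicle, so the values may stand for very few fragments. Its neighbour H2-DMb1 averaged 11.5 FPKM over the 4 libraries, against 0.133 FPKM for H2-DMb2, beside the promoter windows printed above. The transcripts themselves are also alike, and 179 of 1305 windows of 100 bases in the longest coding transcript of H2-DMb1 (13.7%) occur in H2-DMb2. In the transcript of H2-DMb2, 12.9% of windows of 100 bases and 30.9% of windows of 50 bases were shared, and the rest were not. Reads from shared stretches cannot be assigned to 1 of the genes by sequence, so the exact level of H2-DMb2 is uncertain. Their part in its low value was not tested. H2-Eb2, which carries the same letters 29 bases apart, had 0 and 0.0260 FPKM in galectin-1 libraries, against 0.0227 and 0.0234 FPKM in vehicle libraries.

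Ciita, the master coactivator (chr16:10480014-10531064, plus strand), was low in every library. It had 0.315 and 0.425 FPKM in galectin-1 libraries, against 0.736 and 0.410 FPKM in vehicle libraries, and lay under the minimum for testing. Vehicle replicate 1 was the high library, and vehicle replicate 2 lay between the galectin-1 libraries. In a fit without the minimum, its log2 difference was -0.19 (limma adjusted p = 0.507). Leaving out vehicle replicate 1 gave -0.043, and leaving out vehicle replicate 2 gave -0.34. An exon of Ciita overlaps Dexi on the opposite strand. Dexi had 2.42 and 2.58 FPKM in galectin-1 libraries, against 3.10 and 2.64 FPKM in vehicle libraries, and vehicle replicate 1 was highest in this gene too. In the longest coding transcript of Ciita, 16 of 5958 windows of 50 bases (0.269%) were shared with another gene, Dexi among them, and 0 of 5908 windows of 100 bases. Whether reads of Dexi entered the value of Ciita was not tested. H2-Oa and H2-Ob, the chains of the H2-DO heterodimer that inhibits H2-DM, stayed under 1 FPKM in every library. H2-Oa had 0.0830 and 0.686 FPKM in galectin-1 libraries, against 0.513 and 0.0882 FPKM in vehicle libraries, a scatter within each group larger than the difference between the group means.

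Ratios between these genes within a library do not change when a library is multiplied by 1 factor. H2-Aa over Cd74 was 0.238 and 0.211 in galectin-1 libraries, against 0.217 and 0.224 in vehicle libraries. H2-Aa over H2-Ab1, the chains of I-A, was 1.39 and 1.27 in galectin-1 libraries, against 1.26 and 1.52 in vehicle libraries. H2-DMa over H2-DMb1 was 1.37 and 1.49 in galectin-1 libraries, against 1.43 and 1.49 in vehicle libraries. By value, alpha chain transcript exceeded beta chain transcript in every library for both heterodimers. For H2-DM, reads of Brd2 or H2-DMb2 may be mixed into these values, as described above, which was not tested. The 3 H2-DM transcripts over the 3 classical ones came to 0.425 and 0.455 in galectin-1 libraries, against 0.411 and 0.453 in vehicle libraries. The groups overlapped in each of the 11 ratios that were computed. With 2 libraries a group, the smallest 2-sided p of an exact permutation test is 0.33, and the ratios were not tested.

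**Figure D3:**
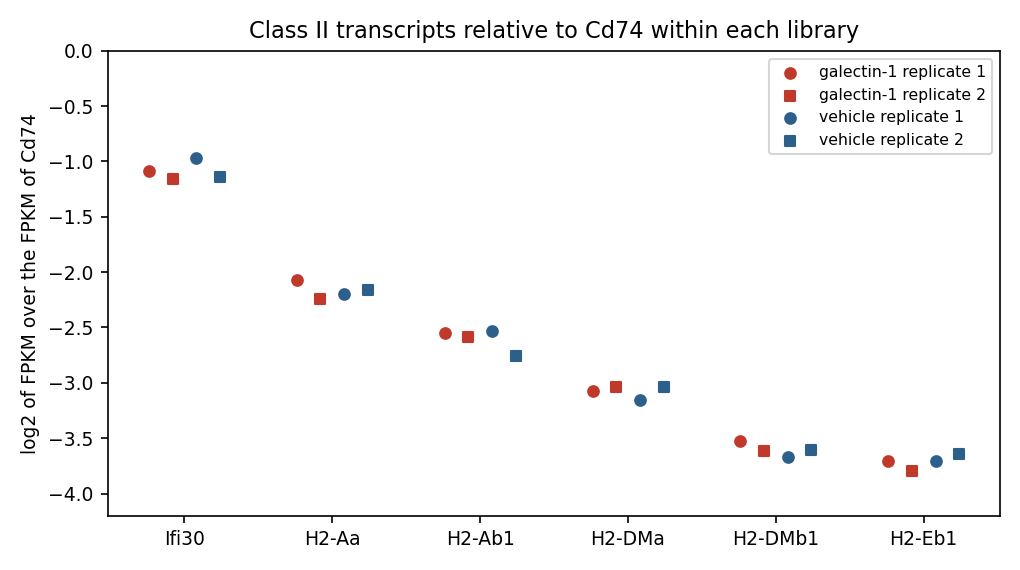
Log2 of the FPKM of 6 class II genes over that of Cd74 in the same library, galectin-1 in red and vehicle in blue, 1 point per library. The steps between genes are larger than the spread of the 4 libraries of a gene, except between H2-DMb1 and H2-Eb1, and red and blue points are interleaved for every gene.

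The genes upstream of class II expression are given by list, and counts of 0 calls in lists this short are near the 1.19% of all tested genes that passed. Of the inducers of Ciita, 9 of 10 were tested, none passed, 5 differences were positive and the median was 0.035 on the log2 scale. Groups did not overlap for 6 of the 9, where 55.4% of all tested genes had groups without overlap. Jak1, a kinase of the interferon gamma receptor, had 108.8 and 108.6 FPKM in galectin-1 libraries, against 91.8 and 95.6 FPKM in vehicle libraries. Its groups did not overlap, and the log2 difference was 0.21 (limma adjusted p = 0.0581, between 0.0292 and 0.237 over 13 alternatives, of which 3 passed). Ifngr1, the ligand-binding chain of that receptor, averaged 53.1 ± 0.523 FPKM with galectin-1 and 48.1 ± 1.66 FPKM with vehicle (SD, n = 2 each; log2 difference 0.14, limma adjusted p = 0.132). Irf8, an interferon-regulated transcription factor of the myeloid lineage, averaged 449 ± 6.65 FPKM with galectin-1 and 432 ± 10.8 FPKM with vehicle (SD, n = 2 each; log2 difference 0.056, limma adjusted p = 0.343). Ifng itself had 0.210 and 0 FPKM in galectin-1 libraries, against 0.144 and 0.0743 FPKM in vehicle libraries.

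The complex that binds the X and Y boxes had 6 of 7 listed genes tested, with none past the threshold, 2 positive and 4 negative differences and a median of -0.020 on the log2 scale. Its members differed in direction. Creb1, a binder of the cAMP response element, had 7.48 and 6.77 FPKM in galectin-1 libraries, against 5.54 and 5.64 FPKM in vehicle libraries (log2 difference 0.30, limma adjusted p = 0.103). Nfyb, a subunit of the CCAAT-binding factor NF-Y, had 6.40 and 5.66 FPKM in galectin-1 libraries, against 8.34 and 7.41 FPKM in vehicle libraries (log2 difference -0.34, limma adjusted p = 0.111). Neither gene's groups overlapped. Groups did not overlap for 4 of the 6 tested genes of this list, near the 55.4% of all tested genes. Rfx5, the large subunit of the X box binding factor, averaged 6.66 ± 0.0974 FPKM with galectin-1 and 7.30 ± 0.292 FPKM with vehicle (SD, n = 2 each; log2 difference -0.12, limma adjusted p = 0.354).

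All 7 endosomal proteases that process the invariant chain or antigen were tested and none passed. The 7 differences were positive with a median of 0.067 on the log2 scale, against 0.0024 over all tested genes, and the groups of all 7 did not overlap, where 55.4% of all tested genes did not. Ctsl, cathepsin L, had 736 and 726 FPKM in galectin-1 libraries, against 662 and 660.1 FPKM in vehicle libraries (log2 difference 0.15, limma adjusted p = 0.0614, between 0.0349 and 0.236 over 13 alternatives, of which 2 passed). Lgmn, the asparaginyl endopeptidase legumain, averaged 760.0 ± 6.54 FPKM with galectin-1 and 709.6 ± 6.19 FPKM with vehicle (SD, n = 2 each; log2 difference 0.10, limma adjusted p = 0.111). Sppl2a, listed under the symbol 2010106G01Rik, encodes the protease that clears the last membrane fragment of the invariant chain. It averaged 86.4 ± 2.38 FPKM with galectin-1 and 81.0 ± 0.439 FPKM with vehicle (SD, n = 2 each, log2 difference 0.092, limma adjusted p = 0.204). Macrophage markers, whose sums are given above, were also higher by value in galectin-1 libraries for 8 of 9 genes, with none past the threshold and a median log2 difference of 0.11. Their part in the values of the proteases was not tested.

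Surface turnover of class II depends on the ubiquitin ligases Marchf1 and Marchf8, which send the molecules to lysosomes, and on Cd83, which opposes Marchf1. None of these 3 genes passed, and their median log2 difference was -0.11. Cd83 had 217 and 211 FPKM in galectin-1 libraries, against 245 and 243 FPKM in vehicle libraries. Its groups did not overlap, where 55.4% of all tested genes had groups without overlap. The log2 difference was -0.19 (limma adjusted p = 0.0555, between 0.0272 and 0.231 over 13 alternatives, of which 4 passed). Marchf1 had 15.9 and 16.6 FPKM in galectin-1 libraries, against 17.4 and 15.6 FPKM in vehicle libraries (log2 difference -0.019, limma adjusted p = 0.894). Marchf8 had 8.53 and 9.81 FPKM in galectin-1 libraries, against 10.3 and 9.61 FPKM in vehicle libraries (log2 difference -0.11, limma adjusted p = 0.455). It was -0.021 without galectin-1 replicate 1 and -0.20 without galectin-1 replicate 2.

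**Figure D4:**
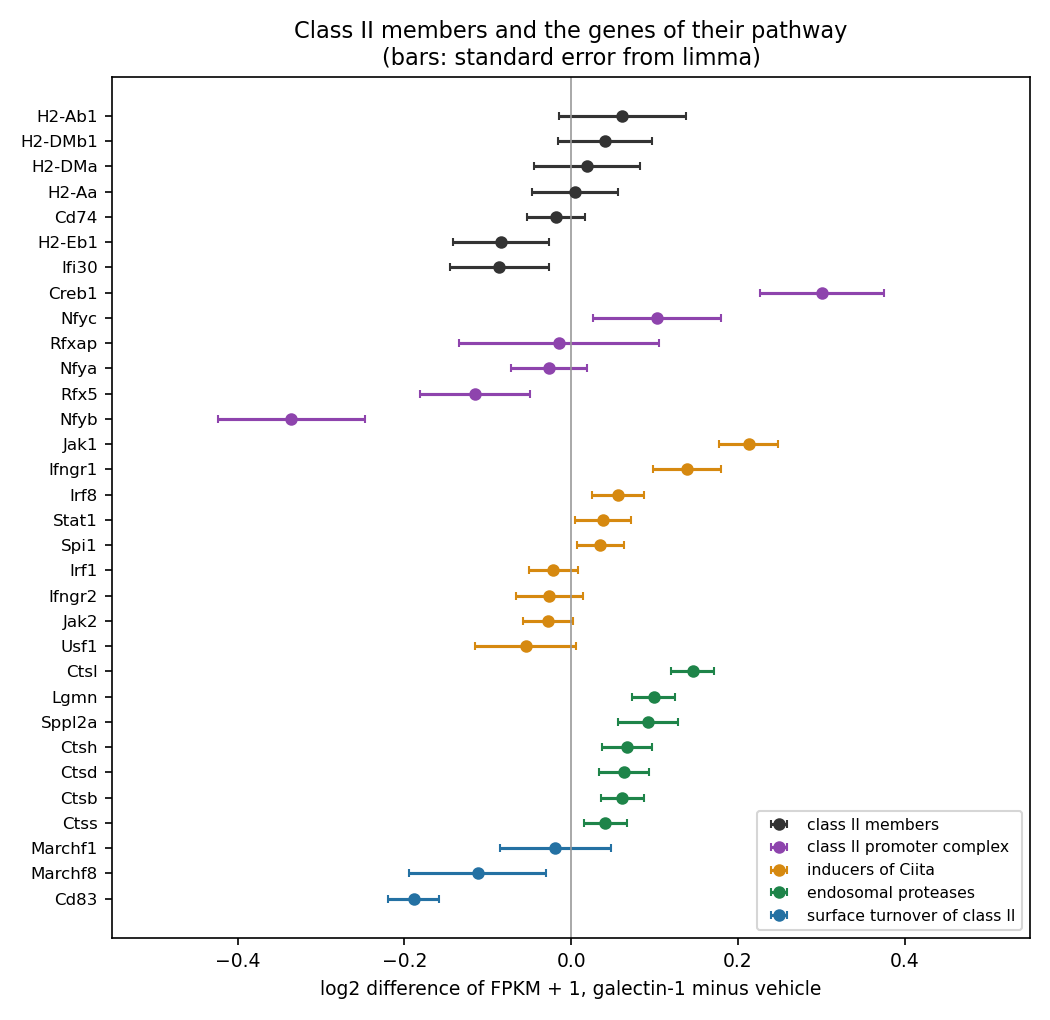
Log2 difference of FPKM + 1, galectin-1 minus vehicle, for the 7 tested class II genes and the tested genes of 4 pathway lists; points are limma estimates and bars 1 standard error (2 libraries per group). The class II genes lie within 0.1 of 0, the 7 proteases all lie above 0, and Creb1 and Nfyb lie farthest out on opposite sides.

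Dendritic cells and B cells carry class II at high levels, so their markers are given beside these genes. In bulk RNA, fewer cells of a type and less RNA per cell cannot be told apart. The 10 dendritic cell markers summed to 23.3 and 24.2 FPKM in galectin-1 libraries, against 29.2 and 30.9 FPKM in vehicle libraries. Fscn1, Ccl22 and Batf3 made up most of these sums. Ccl22 averaged 7.34 FPKM with galectin-1 and 9.04 FPKM with vehicle, and Batf3 averaged 4.45 and 5.66 FPKM. The list did not move as a whole. Among the 5 tested markers 4 differences were negative and 1, that of Itgax, was positive, with a median of -0.27 on the log2 scale. Flt3, Zbtb46, Xcr1 and Clec9a also had higher means with galectin-1, and Ccr7 and Cd209a had lower ones. Of these, all but Ccr7 averaged under 1 FPKM and were not tested. Of 5 tested, Fscn1, which encodes the actin bundler of mature dendritic cells, fell to 7.84 and 8.18 FPKM in galectin-1 libraries, against 11.3 and 11.7 FPKM in vehicle libraries (log2 difference -0.47, limma adjusted p = 0.0425). It was the 1 call among the 5, where 0.586% of all tested genes were called lower. Leaving out any 1 of the 4 libraries ended the call of Fscn1, with limma adjusted p of 0.172 to 0.221 and log2 differences of -0.50 to -0.44. The call was also lost without a filter (limma adjusted p = 0.130) and without the variance trend (0.138), and 7 of 13 alternatives kept it. Any part of this in the class II values was not tested. The markers Flt3, Clec9a and Cd209a stayed at or under 0.128 FPKM, each at 0 in at least 1 library. Other markers of the list were above 0 throughout, with Zbtb46 at 0.0822 to 0.320 FPKM, Xcr1 at 0.437 to 0.543 FPKM and Itgax, which macrophages also express, at 1.62 to 1.88 FPKM. The 6 B cell markers used summed to 5.07 and 4.41 FPKM in galectin-1 libraries, against 4.91 and 5.05 FPKM in vehicle libraries. Pax5, the transcription factor that sets B cell identity, was at 0 in 3 of the 4 libraries. Most of the sum came from Cd79b at 2.42 to 3.37 FPKM and Cd22 at 1.47 to 1.95 FPKM. The 6 T and NK cell markers summed to 3.68 and 3.58 FPKM in galectin-1 libraries, against 3.72 and 4.30 FPKM in vehicle libraries. Nearly all of these sums came from Cd4 at 3.46 to 4.19 FPKM (log2 difference -0.11, limma adjusted p = 0.515), with Cd3e and Cd3g at 0 throughout.

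The mean profile of the 7 tested genes spanned 0.017 on the log2 scale over the 4 libraries, highest in vehicle replicate 1. The 5 genes nearest to it, by Euclidean distance of centred log2(FPKM + 1) values over 4 libraries and 8717 genes compared, were Atxn7 (0.0056), Cds2 (0.0064), Cblb (0.0072), Irg1 (0.0083) and Nadk (0.0094). A profile this flat has many near neighbours, and 515 genes lay within a distance of 0.05.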

How the data were processed

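Poly(A)-selected stranded libraries were made from total RNA of 4 macrophage samples, per the labels' protocols, and groups follow the sample titles. The authors deposited 1 value per gene symbol, read here as FPKM: the files do not name the unit, which was taken from their Cufflinks-style header and values. Cufflinks 2.2.1, TopHat2 2.0.13, SAMtools 0.1.19, Bowtie2 2.2.3 and mm10 are listed, without roles, in the submitters' processing notes. Annotation, strand use and multiple mapping are not stated in the sources used. FPKM of overlapping or near-identical genes depends on these steps.

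Values were analysed as log2(FPKM + 1), a scale that understates changes of low genes, for the 9380 genes averaging 1 FPKM or more. limma 3.58.1 in R 4.3.3 was run with a variance trend, 2-sided, with Benjamini-Hochberg adjustment over all tested genes (threshold 0.05, 2 residual and 3.89 prior degrees of freedom), and was tested on simulated data. Without read counts no count model or counting interval was used. Fitted alternatives covered scaling, pseudocount, filter, variance trend, small RNA entries, single libraries and a replicate block. Gene coordinates are RefSeq GRCm38.p6, counted from 1, and overlaps are from GENCODE M21. Genes and lists were chosen with earlier results of these data known. All 9 genes were named, with up to 3 genes of smallest p per pathway list and the 5 nearest profiles. One gene of the B cell marker list is not reported here and was left out of its sum.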

Additional observations from a re-analysis of the deposited data

How the results depend on the processing

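None of 102 alternative fits of the 9 genes passed the threshold (limma), and the smallest adjusted p was 0.235. Of these fits, 10 turned the sign of a difference that no fit called and the rest kept the direction, among them 2 that moved by more than the replicate spread. The log2 difference of H2-Aa was -0.020 after quantile normalization, -0.0014 with median-of-ratios factors and -0.027 after rescaling without small RNA entries, which also gave -0.012 for H2-DMa. That rescaling shifted the median of all genes to -0.027. Leaving out 1 library each gave -0.046 to 0.056 for H2-Aa, -0.046 to 0.17 for H2-Ab1, -0.039 to 0.077 for H2-DMa, -0.049 to 0.013 for Cd74 and -0.093 to 0.055 for Marchf1, with the lone sample of an arm assumed to vary like the others. The sign turned without vehicle replicate 1 for H2-Aa (-0.015), H2-DMa (-0.039) and Marchf1 (0.055), and without vehicle replicate 2 for H2-Ab1 (-0.046). It turned without galectin-1 replicate 1 for H2-Aa (-0.046), Cd74 (0.013) and Marchf1 (0.0078), and without galectin-1 replicate 2 for H2-DMa (-0.025). Irf8 was at -5.2e-05 after quantile normalization. Without a filter and with a pseudocount of 0.1, a setting chosen after seeing the data, Ciita was at -0.49 (limma adjusted p = 0.537) and H2-DMb2 at 0.96 (limma adjusted p = 0.431).

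Calls over all genes (57 higher, 55 lower) moved with the setting. There were 24 higher after quantile normalization, 35 and 90 lower after rescaling, 1 and 2 lower with no filter, 127 and 99 lower at a minimum mean of 5 FPKM, 1 and 1 lower without the variance trend, and 191 and 178 lower without small RNA entries. Leaving out 1 library left 4 to 9 higher and 3 to 12 lower. With the replicate block there were 123 higher and 117 lower. Same-numbered libraries did not deviate together from their group means over the tested genes (correlation 0.011). That value cannot show whether the samples were paired, and the labels do not say. The block called none of the 9 genes. Jak1 was the 1 inducer called higher at the 5 FPKM minimum, without small RNA entries and with the block. Ctsl was the 1 protease called higher at the 5 FPKM minimum and without small RNA entries. Cd83 was the 1 turnover gene called lower at the 5 FPKM minimum, without small RNA entries, with the block and after rescaling. The causes were not tested. The absolute depth is unknown, and H2-DMb2, at 0 to 2 steps of its smallest value, is too coarse for a comparison.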
